A study of Mus musculus with 6 samples.

Results

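The 9 genes described here act in the cAMP, cGMP and gap junction pathway that holds the mouse oocyte in meiotic prophase or releases it, and they were followed in oocytes matured in culture without or with metformin. They were chosen by name, without a cut on their measured values, though earlier results of these data were known. The genes are Gpr3, Gpr12, Adcy3, Adcy9, Pde3a, Prkaca, Prkar1a, Npr2 and Gja4. All 9 were found among the 55487 genes of the count table. Of these, 6 had enough reads to enter the test over 12793 genes, while Gpr12, Adcy3 and Npr2 did not.

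The 6 libraries comprised 3 labelled control and 3 labelled metformin, a biguanide drug that lowers blood glucose. Donor females of both groups received 10 IU of pregnant mare serum gonadotropin. Fully grown oocytes were taken at the germinal vesicle stage 46 to 48 h later, stripped of cumulus cells by pipetting, and kept for 16 h in M16 medium until they had reached the M2 stage. The protocol lists metformin at 10, 20 and 50 μM and does not say which concentration the sequenced oocytes received. The series title speaks of aged mice, while the sample labels give no age, strain or number of oocytes per library, nor whether replicates came from separate animals. What the p-values weigh is thus the spread among these libraries, which may be technical.

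A fully grown oocyte stays in prophase as long as its cAMP is high. GPR3 and its relative GPR12 are constitutively active receptors that act through the stimulatory G protein on adenylyl cyclase, which makes cAMP. cAMP releases the catalytic subunits of protein kinase A from the regulatory subunits, and the active kinase keeps the cyclin-dependent kinase of M phase off. PDE3A, a phosphodiesterase inhibited by cGMP, would otherwise break cAMP down. The cGMP is made in the surrounding granulosa and cumulus cells by NPR2, the receptor guanylyl cyclase for C-type natriuretic peptide, and reaches the oocyte through gap junctions that contain connexin 37, the product of Gja4. Oocytes at the M2 stage have already left prophase, so the levels given here are those of transcripts present after arrest had ended.

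Total counts ranged from 8622281 to 10588292 per library, and reads were found for 19662 to 20212 genes in each. Of 11 oocyte markers, 10 had at least 1564 reads in every library; Gdf9, a growth factor of the oocyte, had between 62427 and 80625. The other, Figla, a transcription factor of early oocytes, had 8 to 27 reads. Of 19 cumulus and granulosa markers, 15 had at most 10 reads in every library. Amh, Foxl2 and Ptx3 were at 0 throughout, Fshr had 3 to 10 reads and Inha had 0 to 16. The other 3 were clearly present in every library: Cyp19a1, which encodes aromatase, had 318 to 489 reads, Nr5a2 had 159 to 188 and Kitl had 78 to 109. The whole list summed to 70.6 to 73.2 CPM (counts relative to TMM-scaled library sizes) in the control libraries and 67.2 to 79.1 CPM in the metformin libraries. Of 10 markers of theca, stroma and endothelium, 5 had at most 10 reads in every library. Pecam1 had 230 to 365 reads, Kdr 44 to 62 and Dcn 7 to 25. Col1a1 and Col1a2 had 25 and 20 reads in control replicate 1 and at most 4 in any other library. Control replicate 1 also held 281 haemoglobin reads, against 0 to 2 in each of the other 5 libraries.

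Among the oocyte's receptors the related pair Gpr3 and Gpr12 stood far apart in level, so the 250 bases upstream of each gene's start are shown. They come from RefSeq (build GRCm38.p6) and are written 5′ to 3′ on the gene's own strand. Capitals mark 2 kinds of motif, each searched on both strands: the GC box (GGGCGG) and the E-box (CANNTG).
Gpr3 (chr4:133212537-133212786, minus strand): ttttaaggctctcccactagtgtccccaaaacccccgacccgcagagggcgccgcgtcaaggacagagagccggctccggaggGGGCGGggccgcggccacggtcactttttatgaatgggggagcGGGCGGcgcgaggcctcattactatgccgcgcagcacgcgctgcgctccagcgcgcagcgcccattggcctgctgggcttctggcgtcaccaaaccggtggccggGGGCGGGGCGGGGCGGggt
Gpr12 (chr5:146585240-146585489, minus strand): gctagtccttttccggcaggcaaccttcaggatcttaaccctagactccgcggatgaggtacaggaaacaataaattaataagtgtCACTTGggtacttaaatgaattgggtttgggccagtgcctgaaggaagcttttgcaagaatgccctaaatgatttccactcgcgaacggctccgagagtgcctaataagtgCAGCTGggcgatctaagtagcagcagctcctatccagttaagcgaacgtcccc
The Gpr3 window held 5 GC boxes, some of which overlap, and no E-box. The Gpr12 window held 2 E-boxes and no GC box. Across 32851 upstream windows of the same length, 32.7% held a GC box and 66.2% held an E-box. The Gpr3 window had 29 CpG dinucleotides and 70.8% G or C, and 93.2% of all windows had fewer CpG dinucleotides. The Gpr12 window had 10 CpG dinucleotides and 48.8% G or C. The median over all windows was 6 CpG dinucleotides. Windows were found for 8 of the 9 genes. Only a single window per gene is described, although Gpr12, Adcy3 and Prkaca each had 2 and Prkar1a had 6. That of Adcy3 began inside the annotated gene. None of the 8 windows described held the cAMP response element TGACGTCA, which 1.55% of all windows held. These matches describe letters in the windows, not binding.

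Gpr3 was the arrest receptor with reads throughout. Gpr3 (ENSMUSG00000049649, GRCm38 chromosome 4, 133209340 to 133212536, minus strand) had 263, 188 and 237 reads in control replicates 1 to 3 and 253, 307 and 218 in metformin replicates 1 to 3. The ranges of the groups overlapped, with the highest count in a metformin library and the lowest in a control library. Its CPM averaged 24.5 ± 3.20 (SD, n = 3) without and 25.5 ± 4.12 with metformin. The log2 fold change, metformin minus control, was 0.06 with an SE of 0.186 and an edgeR adjusted p of 1.00. The 95% interval of the fold ran from 0.786 to 1.38.

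Reads of Gpr3 share sequence with another gene. Its 5′ end overlaps the exons of Cd164l2 on the opposite strand by 204 bases, or 7.46% of the exonic length of Gpr3. Cd164l2 itself had 3798 to 4584 reads per library, many more than Gpr3. The library kit does not mark strand, so reads in the shared stretch cannot be assigned by strand, and how the authors' counting treated them is not given in the sources used. The upstream window printed above also lies within the annotated span of Cd164l2.

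Gpr12 (ENSMUSG00000041468, chromosome 5, 146582398 to 146585239, minus strand) was barely detected. It had 3, 5 and 0 reads in the control libraries and 5, 1 and 4 in the metformin libraries. Over all 6 libraries this came to 18 reads, 8 of them in control and 10 in metformin libraries, against 1466 reads of Gpr3. Per base of exon Gpr3 was 74.8-fold above Gpr12 (exact 95% interval 47.2 to 127, for counting error only). The third relative in the mouse, Gpr6, had no read in any library. A count of 3, taken here as the limit of detection, corresponded to 0.285 to 0.339 CPM.

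Of the adenylyl cyclases usually named for the mouse oocyte, Adcy9 was present and Adcy3 was close to absent from the counts. Adcy3 (ENSMUSG00000020654, chromosome 12, 4133103 to 4213525, plus strand) had 3 reads in control replicate 3 and none elsewhere. Its exons overlap those of Cenpo on the opposite strand by 1380 bases, 22.1% of its exonic length, and Cenpo had 414 to 550 reads per library. Adcy9 had 876 reads in all. Per base of exon it was 351-fold above Adcy3, with a counting interval of 120 to 1705.

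Adcy9 (ENSMUSG00000005580, chromosome 16, 4287529 to 4420498, minus strand) varied most between libraries among the 6 tested genes. It had 129, 122 and 203 reads in the control libraries and 199, 9 and 214 in the metformin libraries. The 5 other libraries lay together, and metformin replicate 2 alone was far below them: the lowest of the other 5 was 15.3-fold above it in CPM. The mean was 16.1 ± 4.21 CPM without and 13.9 ± 11.4 CPM with metformin (SD, n = 3). The log2 fold change was -0.21 with an SE of 1.01, and the 95% interval of the fold ran from 0.133 to 5.58. Without metformin replicate 2 it was 0.34 with an SE of 0.249 and an edgeR adjusted p of 1.00, so the direction turned without that library. Leaving out control replicate 3 also turned it, to 0.02, and limma-voom gave -1.12. Such a gap was rare. Of 5977 genes with at least 10 CPM in the 5 other libraries, only Adcy9, Lin28a and Nup62 were below 10% of the lowest of them in metformin replicate 2.

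**Figure D1:**
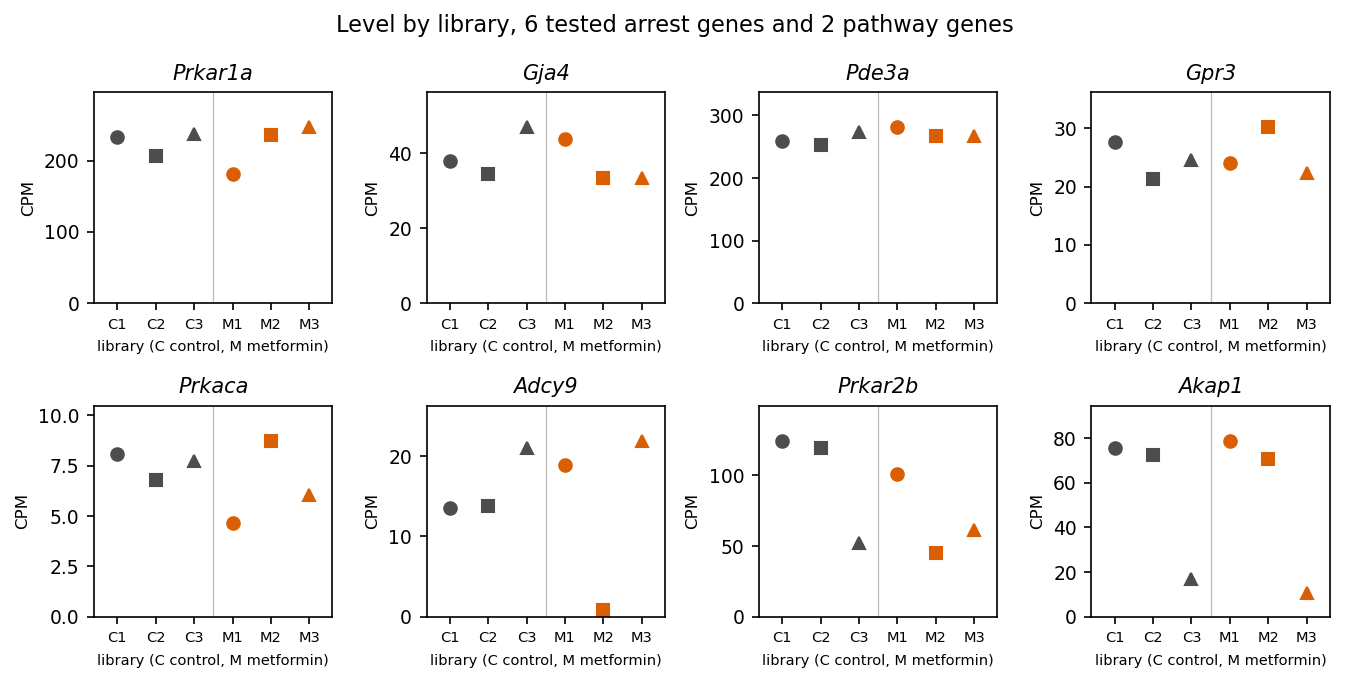
Reads in CPM (vertical axes) for the 6 arrest genes that entered the test and for Prkar2b and Akap1, with 1 panel per gene and 1 marker per library (grey for control, orange for metformin). The ranges of the groups overlap in every panel. Adcy9 in metformin replicate 2 lies at 0.884 CPM against 13.6 to 21.9 CPM in the other 5 libraries.

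Pde3a, the phosphodiesterase that lowers cAMP at resumption of meiosis, was among the most evenly measured of the arrest genes. Pde3a (ENSMUSG00000041741, chromosome 6, 141249269 to 141507448, plus strand) had 2460, 2230 and 2651 reads in the control libraries and 2956, 2718 and 2616 in the metformin libraries. In CPM these were 259, 252 and 274 in control and 281, 267 and 268 in metformin libraries. The ranges overlapped, with only metformin replicate 1 above every control library. The means were 262 ± 11.2 and 272 ± 7.98 CPM (SD, n = 3). The log2 fold change was 0.06 with an SE of 0.121 and an adjusted p of 1.00 in edgeR. The 95% interval of the fold, 0.865 to 1.25, was the narrowest of the 6 tested genes. An antisense gene, Gm28523, overlaps 741 bases of its exons and had 5 to 18 reads per library.

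Of the protein kinase A subunits, the regulatory Prkar1a had many more reads than the catalytic Prkaca. Prkar1a, the type I regulatory subunit (ENSMUSG00000020612, chromosome 11, 109649405 to 109669656, plus strand), had 2219, 1831 and 2300 reads in the control libraries and 1898, 2400 and 2411 in the metformin libraries. After scaling, the lowest and the highest library were both metformin libraries, at 181 and 247 CPM. The mean was 226 ± 16.6 CPM without and 221 ± 35.5 CPM with the drug (SD, n = 3). Between the groups the log2 fold change was -0.03 with an SE of 0.149, and the 95% interval of the fold was 0.780 to 1.23.

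Prkaca, the catalytic subunit that phosphorylates the targets of cAMP (ENSMUSG00000005469, chromosome 8, 83972993 to 83996443, plus strand), had 77, 60 and 75 reads in the control libraries and 49, 89 and 59 in the metformin libraries. The metformin libraries spread on both sides of the controls. Control libraries averaged 7.54 ± 0.679 CPM and metformin libraries 6.48 ± 2.08 CPM (SD, n = 3). The log2 fold change was -0.22 with an SE of 0.261, and the 95% interval of the fold was 0.578 to 1.28. The difference was smaller than the spread between the metformin libraries, and the edgeR adjusted p was 1.00.

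On the cGMP side, Npr2 was close to 0 and Gja4 was well expressed. Npr2 (ENSMUSG00000028469, chromosome 4, 43631935 to 43651244, plus strand) had 2 reads in metformin replicate 3 and none in the other 5 libraries. Its ligand gene Nppc, made by mural granulosa cells, had 2 reads in each of 3 libraries and 0 in the others. Gja4 (ENSMUSG00000050234, chromosome 4, 127311421 to 127314039, minus strand) had 361, 304 and 454 reads in the control libraries and 459, 341 and 325 in the metformin libraries. The ranges overlapped, and 1 library of each group stood above the other 4. The means were 39.7 ± 6.45 and 36.8 ± 5.94 CPM (SD, n = 3). Their log2 fold change was -0.11 with an SE of 0.182, and the 95% interval of the fold was 0.702 to 1.22. Gja1, which encodes connexin 43 of the cumulus cells, had 1 to 9 reads per library. Pooled over the libraries and per base of exon, Gja4 was 488-fold above Gja1 (337 to 736 for counting error). That interval leaves out the choice of gene length. Single libraries gave 244 to 1978 per base of exon, but 75.7 to 614 with each gene given the length of its main transcript.

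Set against each other per length, the 9 genes spanned the range from abundant to undetected transcripts. Levels between genes are given as the deposited FPKM, fragments scaled to gene length and sequencing depth. Averaged over the 6 libraries, FPKM was 48.8 ± 3.88 for Prkar1a, 22.7 ± 3.73 for Gja4, 19.7 ± 1.26 for Pde3a and 6.20 ± 0.929 for Gpr3 (SD, n = 6). Prkaca followed with 2.50 ± 0.535 and Adcy9 with 1.48 ± 0.746. Gpr12 averaged 0.0477, Adcy3 0.00491 and Npr2 0.00430. Among all tested genes, 93.1% had a lower mean FPKM than Prkar1a, 85.2% a lower one than Pde3a, 67.9% a lower one than Gpr3, 49.9% a lower one than Prkaca and 38.8% a lower one than Adcy9. In bulk oocyte RNA, fewer cells with a transcript and less of it per cell cannot be told apart.

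**Figure D2:**
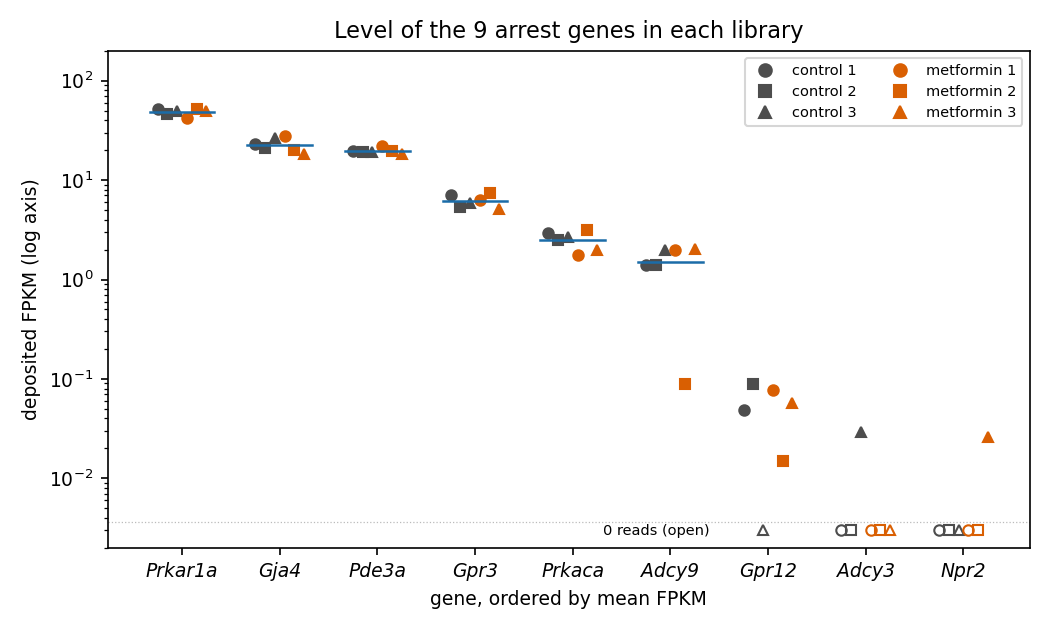
Deposited FPKM (log axis) of the 9 arrest genes in each library, ordered by their mean, with 1 marker per library and a line at the mean where all 6 libraries had reads. Open markers below the dotted line are libraries with 0 reads and have no value on the axis; Prkar1a, Gja4 and Pde3a lie at the top, and Gpr12, Adcy3 and Npr2 lie at or near 0.

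The steps in this order were compared within libraries with an exact two-sided sign-flip permutation test on log2(FPKM + 0.1), adjusted over 8 neighbouring pairs. With 6 libraries the smallest possible p is 0.03125, which adjustment over 8 pairs raised to 0.0625, so none of the 8 pairs passed 0.05. At that smallest p stood 4 pairs, in each of which 1 gene was higher in 6 of 6 libraries and the ranges did not overlap. The pairs and their directions were taken from the mean FPKM of these same libraries. An error in the length of a gene would shift all 6 libraries alike, so their agreement does not bear on it. Prkar1a exceeded Gja4 by 1.11 ± 0.312 on the log2 scale, Pde3a exceeded Gpr3 by 1.66 ± 0.188, Gpr3 exceeded Prkaca by 1.29 ± 0.256 and Adcy9 exceeded Gpr12 by 3.13 ± 1.27 (SD over 6 libraries). The difference between Adcy9 and Gpr12 was narrowed by the 0.1 added, since Gpr12 averaged only 0.0477 FPKM. The ranges of Adcy9 and Gpr12 nearly met, at 0.0882 FPKM for Adcy9 in metformin replicate 2 and 0.0880 for Gpr12 in control replicate 2.

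In the remaining pairs the ranges overlapped. Gja4 and Pde3a differed by 0.19 ± 0.181 on the log2 scale, Gja4 being higher in 5 of 6 libraries (exact permutation p = 0.0625, adjusted 0.1). Prkaca was above Adcy9 in 4 of 6 libraries (exact p = 0.125, adjusted 0.143). The order of their means also depended on gene length. The deposited FPKM divides by the summed length of all distinct annotated exons, with overlapping exons counted repeatedly, for 97.3% of 7455 well-covered genes. Adcy9 was thereby divided by 10023 bases, although its exons cover 5197. On the TPM scale (a library's length-scaled reads brought to a common sum), with the covered length, Adcy9 reached 6.59 ± 3.32 and Prkaca 6.42 ± 1.30 (SD, n = 6), so that the 2 means changed places while the other 7 of 9 ranks were kept. Within libraries, Adcy9 was the higher of the 2 in 3 of 6 on that scale (mean log2 difference, Adcy9 minus Prkaca, -0.38 ± 1.86; exact permutation p = 0.906), so neither order was separated. The lead of Gja4 over Pde3a also shrank there, to 0.10 ± 0.181, with Gja4 higher in 4 of 6 libraries (exact permutation p = 0.25). With each gene given the length of its main transcript it was 0.05 ± 0.181, in 3 of 6 libraries (exact permutation p = 0.5).

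None of the 6 tested arrest genes passed the adjusted threshold of 0.05 in the comparison of metformin with control. In edgeR 5 of 12793 genes did (0.0391%), and in DESeq2 10 of the 9311 genes with an adjusted p did (0.107%). At an unadjusted p under 0.05 there were 0 of the 6, against 1.50% of all tested genes. The number of the 6 whose groups did not overlap was also 0, against 5.63% of all tested genes. DESeq2 and limma-voom called 0 of the 6 as well. The fitted change was above 0 for Gpr3 and Pde3a and below 0 for the other 4, with signs that turned for Gpr3, Adcy9, Prkar1a and Gja4 when single libraries were left out. Its median was -0.07, beside 0.01 for all tested genes. For the 5 genes other than Adcy9 the 95% intervals of the fold lay between 0.578 and 1.38. These intervals bound the differences that remain possible and do not show that the levels were equal.

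**Figure D3:**
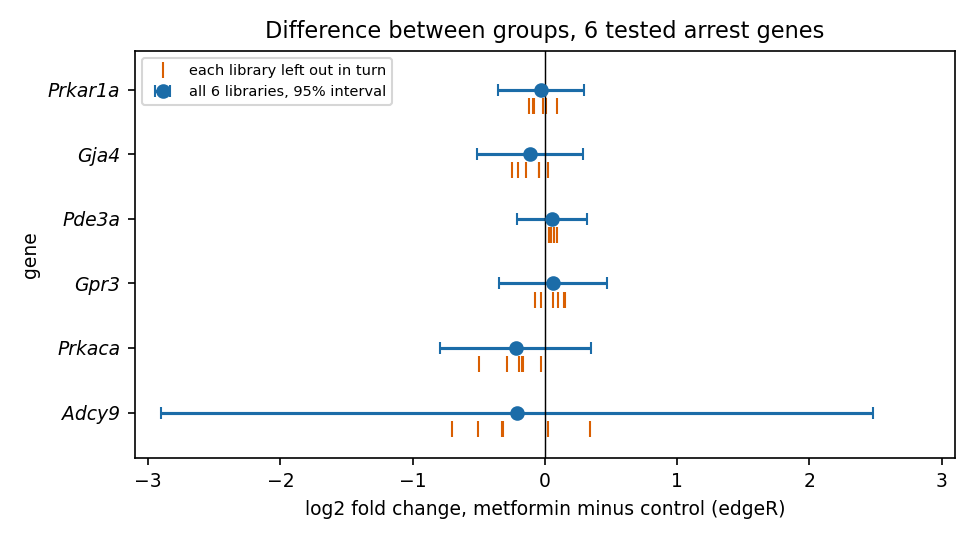
Log2 fold change, metformin minus control, for the 6 tested arrest genes from edgeR; the horizontal axis is in log2 units, circles with bars are the estimate from all 6 libraries and its 95% interval, and ticks are the estimates with each library left out in turn. Every interval includes 0, and that of Adcy9, from -2.91 to 2.48, is far wider than the others.

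The wider pathway was read from a list of 98 genes in 8 roles, including the 9. Of these, 62 were tested and 11 had no read. None of the 62 passed in edgeR. At an unadjusted p under 0.05 there was 1 of the 62 (1.61%), beside 1.50% of all genes, and the groups did not overlap for 4 (6.45%), beside 5.63%. Fitted changes were above 0 for 33 and below 0 for 29, with a median of 0.02. Both shares were close to those of all tested genes.

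Among receptors, G proteins and their regulators, 12 were tested, 0 passed, and 6 were fitted higher and 6 lower, with a median of 0.01. Rgs2, a regulator of G protein signalling, dominated this group with a mean FPKM of 511, 75.3% of the group's summed FPKM. It averaged 2366 ± 278 CPM without and 2469 ± 632 CPM with metformin (SD, n = 3). Gnai3, an inhibitory G protein α subunit, followed at 73.7 FPKM and the γ subunit gene Gng5 at 24.4. On the covered exon length another γ subunit gene, Gng12, stood above Gng5, with a mean TPM of 118 against 69.9. Gnas, which encodes the stimulatory subunit downstream of GPR3, had 7.15 FPKM and 125 ± 14.3 against 133 ± 12.4 CPM. How far Gnas lay below Gnai3 depended on the length used. The mean TPM of Gnas was 26.6 on the covered exon length, against 169 for Gnai3, and 59.6 against 132 on main transcript lengths. The smallest p of the group belonged to Gng12, with a log2 fold change of 0.30 and an SE of 0.187.

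Of the adenylyl cyclases, 6 were tested and 0 passed, with 4 fitted higher and 2 lower. By FPKM the highest was not one of the usual pair: Adcy2 had 2.45 FPKM, Adcy9 1.48 and Adcy8 0.670. On the covered exon length, Adcy2 had a TPM of 5.59, below the 6.59 of Adcy9. In CPM, Adcy2 averaged 9.52 ± 1.33 without and 11.3 ± 3.82 with metformin (SD, n = 3). Adcy1, a calcium-stimulated cyclase, had 7, 3 and 11 reads in control and 16, 12 and 13 in metformin libraries. Those groups did not overlap, but its log2 fold change of 0.84 with an SE of 0.466 did not pass after adjustment over all genes. Its unadjusted p in edgeR was 0.0972.

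Pde3a was the most abundant of the phosphodiesterases by both length scales. It made up 43.6% of the group's summed FPKM on average, between 41.1% and 46.6% in single libraries, before Pde8a with 28.1% and Pde3b with 22.8%. Pde8a encodes a cAMP-specific enzyme and Pde3b the other cGMP-inhibited one. Their mean FPKM was 12.7 and 10.3. The ratio of Pde3a to Pde3b was 2.15, 1.67 and 1.65 in the control libraries and 2.08, 1.84 and 2.15 in the metformin libraries. It was above 1 in every library and did not differ between the groups beyond their spread (log2 difference 0.16, exact permutation p = 0.3, adjusted 0.8 over 4 ratios; 3 against 3 cannot go below 0.1). Of the 11 tested phosphodiesterases, 0 passed, 5 were fitted higher and 6 lower. Pde1a, a calcium-activated enzyme, had the smallest p, with a log2 fold change of 0.74 and an SE of 0.426.

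Among the subunits and inhibitors of protein kinase A, Prkar1a held 58.4% of the group's summed FPKM, and 50.9% of the summed TPM on covered exon length. The type II regulatory subunits Prkar2a and Prkar2b followed with 16.4 and 13.0 FPKM. Their order turned on the covered length, where Prkar2a had a TPM of 44.2 and Prkar2b 53.7. Prkar2b was split within groups: its CPM was 125, 119.7 and 52.1 in the control libraries and 101, 45.5 and 61.1 in the metformin libraries. Its log2 fold change of -0.51 with an SE of 0.437 did not pass. Of the 7 tested genes of this group, inhibitors included, 0 passed, with 2 fitted higher and 5 lower.

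The catalytic subunits Prkaca and Prkacb had 2.50 and 0.912 FPKM, both below Prkar1a. The ratio of Prkaca to Prkacb ranged from 1.91 to 3.27 in FPKM, but from 0.664 to 1.13 when each gene was given the length of its main transcript, so which of the 2 was higher depended on the length used. Prkar1a exceeded the sum of both catalytic subunits 13.2, 13.3 and 14.3 times in the control libraries and 15.6, 12.6 and 18.4 times in the metformin libraries. On main transcript lengths the excess was 9.15 to 12.9 times. The groups overlapped (exact permutation p = 0.4, adjusted 0.8). The ratio of Gja4 to Gja1, resting on few Gja1 reads, ranged from 276 to 2240 in FPKM and from 75.7 to 614 on main transcript lengths, and in FPKM it gave an exact permutation p of 1.

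**Figure D4:**
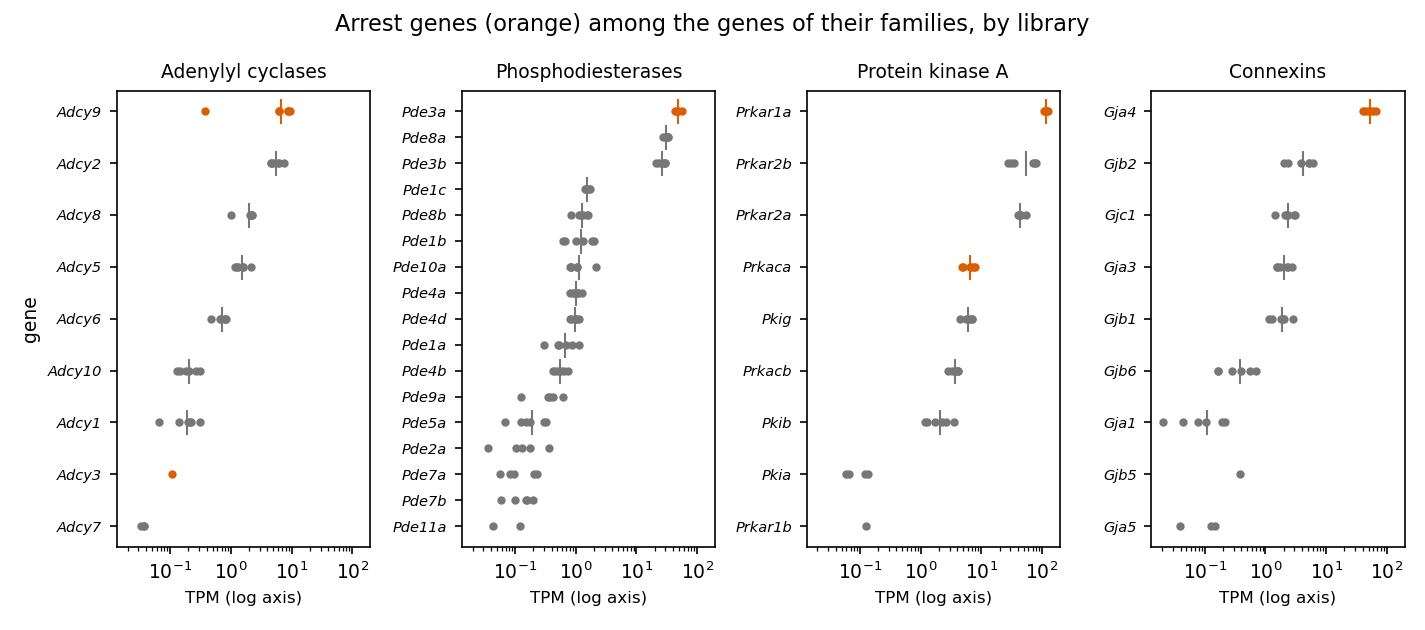
Level of the arrest genes (orange) and of the other genes of their families on a log axis, in TPM on covered exon length; dots are libraries with at least 1 read, ticks are the mean of the 6 libraries where all had reads, and genes with no read are left out. The panels hold adenylyl cyclases, phosphodiesterases, protein kinase A genes and connexins; by mean, Adcy9, Pde3a, Prkar1a and Gja4 lead their panels at 6.59, 48.0, 118 and 52.2 TPM.

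A-kinase anchoring proteins place the kinase at structures in the cell. Of 9 tested anchors, 0 passed, 7 were fitted higher and 2 lower, with a median of 0.09. Akap12 had 31.3 FPKM, Akap7 19.5 and Akap1, which binds the kinase to mitochondria, 11.3. Akap1 had 721, 642 and 164 reads in the control libraries and 829, 719 and 106 in the metformin libraries, so replicate 3 was low in both groups. Its log2 fold change was -0.04 with an SE of 0.967.

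Of the other effectors of cAMP, 7 were tested, 0 passed, 4 were fitted higher and 3 lower. The CREB relative Atf1 led with 11.1 FPKM, followed by Rapgef4, a cAMP-activated exchange factor, with 0.904 and the CREB coactivator gene Crtc3 with 0.611. Crem, a cAMP-responsive transcription factor, had a log2 fold change of 0.55 with an SE of 0.423.

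The cGMP group had 5 tested genes, 0 of which passed. Prkg1, a cGMP-dependent kinase, had 2.51 FPKM, and the receptor cyclases Gucy2c and Gucy2e had 1.65 and 1.39. Gucy2e gave the only unadjusted p under 0.05 in the whole list. It had 189, 135 and 219 reads in the control libraries and 78, 111 and 137 in the metformin libraries. In CPM these were 19.9, 15.3 and 22.6 against 7.42, 10.9 and 14.0, so every metformin library was below every control library. The means were 19.3 ± 3.72 and 10.8 ± 3.30 CPM (SD, n = 3). The log2 fold change was -0.84 with an SE of 0.252, an unadjusted p of 0.00626 and an adjusted p of 1.00 in edgeR, and the gene did not pass.

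The other gap junction genes were below Gja4. Gjb2 had 1.82 and Gja3 0.866 FPKM. Of 5 tested genes 0 passed, 3 were fitted higher and 2 lower. Gjc1, which encodes connexin 45, had 29, 39 and 49 reads in the control libraries and 64, 53 and 71 in the metformin libraries. The groups did not overlap, at 4.17 ± 1.03 against 6.19 ± 1.03 CPM (SD, n = 3). Its log2 fold change of 0.57 with an SE of 0.268 did not pass after adjustment. Its unadjusted p in edgeR was 0.0570.

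Maturing oocytes store and translate messages under the control of motifs near the 3′ end. In the last 100 bases of the main transcript, on the sense strand, 6 of the 9 genes held a poly(A) signal (AATAAA or ATTAAA). The share was 74.1% of 21815 protein-coding genes and 81.1% of the 10522 of them that were tested. Adcy9, Pde3a and Npr2 held neither form there. A cytoplasmic polyadenylation motif (TTTTAT or TTTTAAT) was in 1 of the 9, Adcy3, beside 16.5% of protein-coding genes and 20.5% of the tested ones. An annotated transcript end need not be the one the oocyte uses.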

How the data were processed

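Per the file headers, the authors deposited for each gene and library the raw read count and its FPKM. Libraries were made with the SMART-Seq HT kit, per the labels' protocols. The kit amplifies full-length cDNA from poly(A) tails, so a change in tail length can alter what is captured. It keeps neither strand nor molecular identifiers. The exact intervals of the pooled read ratios cover counting error only, without the spread between libraries. The edgeR intervals of the fold include that spread. TopHat2 2.0.6, CASAVA 1.8 and mm10 are named in the submitters' processing notes. What program and annotation gave the counts is not given in the sources used. Total counts were 8622281 to 10588292 per library, and a count of 3 is 0.285 to 0.339 CPM.

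The members and gene lists were chosen with earlier results of these data known. Groups and replicate numbers come from the sample titles. Counts were tested as deposited with edgeR 4.0.16 (quasi-likelihood, robust, TMM scaling, filterByExpr with minimum count 10, group as the only term, Benjamini-Hochberg over 12793 genes, threshold 0.05) under R 4.3.3, and the scripts were tested on simulated data. The SE is the log2 fold change divided by the square root of F. CPM uses TMM-scaled totals. Symbols, coordinates and lengths are from GENCODE M21 on GRCm38; 55141 of 55487 identifiers had a symbol. The neighbour test used a pseudocount of 0.1 FPKM. Ratios of Gpr3 to Gpr12 and Adcy3 to Adcy9 had libraries at 0 and were given only as pooled reads. Alternatives were RLE scaling, library totals, no filter or a mean of 10 CPM, DESeq2 1.42.0, limma-voom 3.58.1, a replicate block, each library left out, and other gene lengths; the main transcript length was chosen after seeing the data.

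Named genes were the 9, the other genes of the ratios, the 3 of highest mean FPKM and the 1 of smallest p in each role, 2 genes most like Gpr3 and 2 most like Pde3a, Gdf9 and 3 granulosa markers. Gpr6, Gnas, Nppc, Lin28a, Nup62, the genes overlapping members and the marker list were named outside that rule, after their values were seen.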

Additional observations from a re-analysis of the deposited data

How the results depend on the processing

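None of the arrest genes and none of the other pathway genes tested passed under any alternative run. Over all genes, edgeR called 5; DESeq2 called 10, and leaving out each library in turn gave 5 to 12. The sample titles number the libraries but do not say that equal numbers were paired. For each gene, the deviation of log2 CPM from the mean of its own group was taken, and these deviations were correlated across groups. Those of same-numbered libraries correlated at 0.144, 0.0441 and 0.200 over 12793 genes, and each library correlated best with its own number. Between different numbers the correlations ran from -0.171 to 0.0316. Such deviations cancel within a group, so the values for equal and for different numbers are not independent of each other. Whether equal numbers share a batch was not tested. With replicate number as a block, 7 genes passed. With each library left out, 4 log2 fold changes turned sign: Gpr3 ranged from -0.0783 to 0.15, Adcy9 from -0.70 to 0.34, Prkar1a from -0.12 to 0.0937 and Gja4 from -0.25 to 0.0260. Of these, only Adcy9 has a single library far from the rest.

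For the ratio of Gja4 to Gja1 (log2 difference 0.15), a pseudocount of 0.1 FPKM gave -0.0901, and leaving out a library gave -0.64 to 0.77; for Prkaca to Prkacb, leaving out a library gave -0.31 to 0.0788. The cause was not tested. With a mean of 10 CPM as the filter, Prkaca was not tested. Depth limits Gpr12, Adcy3 and Npr2, for which a difference between groups was not detectable.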

Other observations

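The genes whose profile over the 6 libraries lay nearest to that of Gpr3, by the root mean square difference of centred log2 CPM among 5916 genes, were Adam10, at 0.0268, and Fam120a, at 0.0315. Gpr3 itself had a root mean square deviation of 0.171 from its own mean. For Pde3a the nearest were Rbm33, at 0.0188, and H13, at 0.0249, beside its own deviation of 0.0513. With so many genes and 6 libraries, close profiles are a description of these libraries.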
